A study of Danio rerio with 12 samples.

Results

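The genes described here act in mitotic entry, spindle assembly, chromosome condensation and the release of sister chromatids. They were given as 39 gene symbols, and 33 of these were found by name among the 25281 genes of the tables. By role, 11 of the 33 act in mitotic entry, 5 in the anaphase-promoting complex (APC/C), separase and cohesion, 7 in the spindle, 2 in the centriole and 8 in chromosome structure. A further 4 symbols were matched by gene ID or suffix to 5 rows and are described apart, and pimreg and psrc1 were not analysed here. All counts over members refer to the 33.

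RNA-seq was performed on ventricles of adult zebrafish after resection of the ventricle apex, and the age in the labels is written as 6-1year. The injury experiment had 1 uninjured library and 1 library at 3 days post-amputation (dpa) each of WT (AB*) and dusp6 mutant (pt30a/pt30a) fish, Dusp6 being a phosphatase of ERK. The foxm1 comparison had 3 WT (AB*) and 3 foxm1 mutant libraries at 3 dpa, labelled as experiments 2 to 4, with 1 library of each genotype per number. Here they are called the foxm1 experiment and replicates 2 to 4. The main test had genotype as its only term and did not use the number. The labels give the mutant alleles of replicates 2, 3 and 4 as sa10708/sa10708, sa10708/sa10709 and sa10708/sa10710, whereas the study's methods name sa10708 alone, an induced mutation predicted to lie in the forkhead DNA-binding domain. Uninjured foxm1 mutant hearts were not analysed here. Hearts were pooled, so p-values measure the spread between libraries and not between fish.

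In the G2 phase, the kinase Cdk1 is held inactive until Cdc25 phosphatases remove its inhibitory phosphates, and the kinases Aurora A and Plk1 drive this switch and the maturation of centrosomes. Condensin and topoisomerase II then compact the chromosomes while microtubule-binding proteins build the spindle, and the APC/C with Cdc20 marks securin for destruction so that separase can open cohesin. Many of these genes are transcribed late in the cell cycle, in mammals under the MuvB complex, B-Myb and FOXM1. Adult zebrafish cardiomyocytes, unlike those of adult mammals, readily re-enter the cell cycle after injury.

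Reads assigned to genes ranged from 54229254 to 67236702 per library in the injury experiment and from 17654534 to 21245883 in the foxm1 experiment. All 8 cardiomyocyte markers found in the tables were above 0 in every library. In the foxm1 experiment, WT replicates 2 and 3 stood apart by fkbp5, at 1189 and 1529 CPM (counts per 1000000 reads, TMM-normalized) against 116 CPM in WT replicate 4 and 111 to 187 CPM in the mutants. Over all genes these 2 libraries were also the most alike, with a Poisson chi-square per degree of freedom of 6.14. Other pairs of this experiment had 21.8 to 39.7. The tests below count them as separate replicates, and whether they are independent was not tested. The foxm1 mRNA was not lower in foxm1 mutants (10.3 to 12.2 CPM in WT, 12.5 to 14.6 CPM in mutants), and dusp6 mRNA was higher in the dusp6 mutant library in both states (93.8 and 201 CPM uninjured, 235 and 338 CPM at 3 dpa, WT first). The sources used here do not say whether either allele lowers its transcript, so these levels do not check the genotypes.

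The first comparison asked which mitotic genes had more transcript at 3 dpa than in uninjured ventricles. Of the 33 members, 32 had their lowest 3 dpa library above their highest uninjured library, a pattern seen in 28% of the 20408 genes tested. Their fold changes ran from 2.19 in tacc3 to 26.6 in g2e3. The median log2 fold change of the 33 was 3.16, against -0.00 over all genes tested. The exception was cdc25d. In bulk ventricles, more dividing cells and more mitotic RNA per cell cannot be told apart.

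Each state had 2 libraries, 1 WT and 1 dusp6 mutant, taken as replicates with injury as the only term. The spread in edgeR's quasi-likelihood test therefore includes the difference between genotypes. That test called no member and no gene at all (0%) under the limits used here (adjusted p up to 0.01, log2 fold change of 0.59 or more in size). An unadjusted p under 0.05 with a higher level was reached by 32 members and by 13.6% of all genes, and the adjusted p of these members lay between 0.0674 and 0.187 in the quasi-likelihood test. DESeq2 called 31 members higher, against 6.15% of all genes higher and 1.31% lower. The likelihood ratio test of edgeR called 31, against 5.5% higher and 0.755% lower, and the quasi-likelihood test over all 10 libraries 31, against 5.94% higher and 1.14% lower. In each of these, sass6 and cdc25d were the members left out. The fit over all 10 libraries takes its spread in part from the libraries of the foxm1 experiment, which are not part of this comparison. It therefore adds no replicates of the uninjured state. The filter on low counts depended little on the injured hearts, since 32 of 33 members reached its level of 0.167 counts per 1000000 reads, before TMM, in both uninjured libraries. The exception was g2e3.

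**Figure D1:**
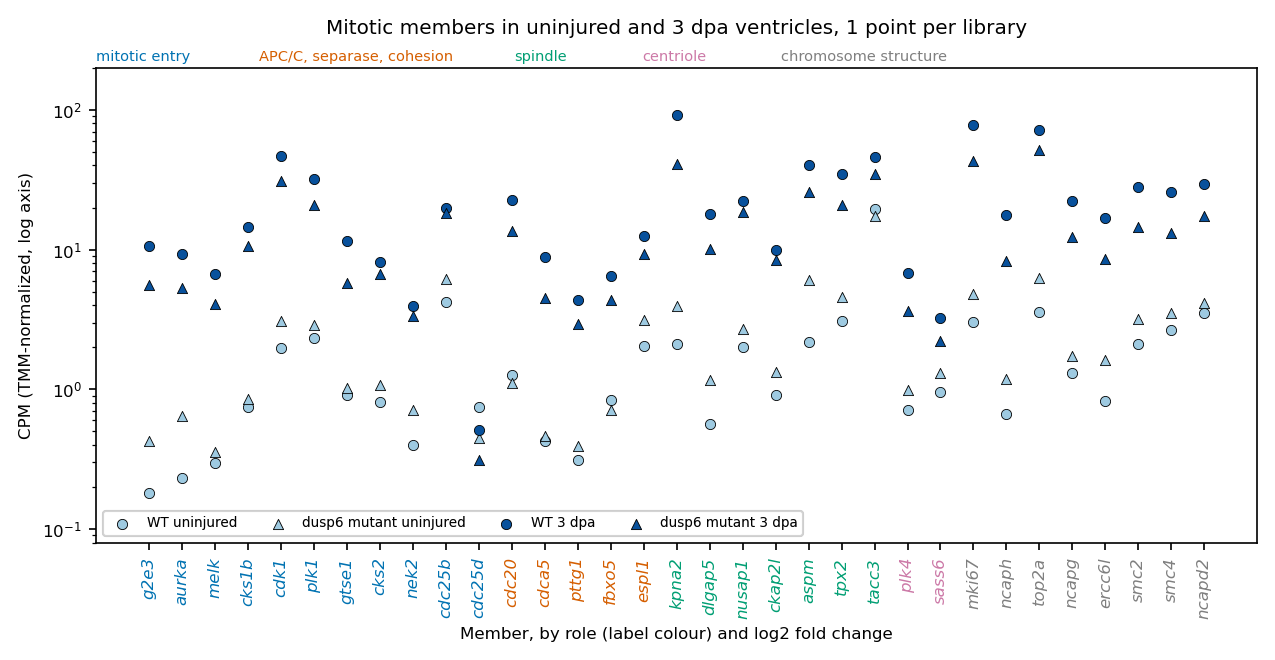
CPM (log axis) of the 33 members in the 4 libraries of the injury experiment, with 1 point per library; circles are WT, triangles dusp6 mutant, pale points uninjured and dark points 3 dpa, and gene labels are coloured by role. Dark points lie above pale points for every member but cdc25d, and the dark triangle lies below the dark circle for all 33.

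Among the mitotic entry genes, the ubiquitin ligase gene g2e3, named for its expression in G2 and M phase, showed the widest difference of all members. It stood at 0.182 CPM for WT and 0.427 CPM for the dusp6 mutant uninjured library (11 and 24 reads), and at 10.6 and 5.60 CPM at 3 dpa. Its log2 fold change was 4.73 ± 0.62 (SE). The gene lies on chromosome 17 (28798725 to 28811747, minus strand, GRCz11).

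Next came aurka, the Aurora A kinase gene, with 0.231 CPM for WT and 0.641 CPM for the dusp6 mutant uninjured library and 9.37 and 5.32 CPM at 3 dpa (log2 fold change 4.07 ± 0.65). The mitotic kinase gene melk had 0.298 and 0.356 CPM uninjured and 6.74 and 4.07 CPM at 3 dpa (4.04 ± 0.46). In both genes the lower 3 dpa library was still above both uninjured libraries.

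The Polo-like kinase gene plk1 is on chromosome 1 (9153141 to 9161843). It was measured at 2.35 CPM for WT and 2.87 CPM for the dusp6 mutant uninjured library and at 31.8 and 20.9 CPM at 3 dpa, a log2 fold change of 3.34 ± 0.32. Without the dusp6 3 dpa library, plk1, cks1b and cdc20 were the 3 members that passed the quasi-likelihood test, as did 168 genes higher at 3 dpa (0.789% of the 21285 then tested).

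The smallest differences of the group were in nek2, cdc25b and cdc25d. The centrosome-separation kinase gene nek2 had 0.397 and 0.712 CPM uninjured and 3.93 and 3.35 CPM at 3 dpa (log2 fold change 2.71 ± 0.46). The phosphatase gene cdc25b, an activator of Cdk1, was already well expressed before injury, at 4.23 and 6.14 CPM, and reached 19.9 and 18.2 CPM (1.88 ± 0.28). Its paralogue cdc25d was near the limit of detection throughout, with 0.744 and 0.445 CPM uninjured and 0.512 and 0.312 CPM at 3 dpa. The log2 fold change of cdc25d was -0.53 ± 0.56 (adjusted p = 0.648, quasi-likelihood test), and 88.6% of its reads in uninjured hearts lay in introns. Between these extremes were cdk1, its small subunits cks1b and cks2, and the microtubule-binding gtse1, with log2 fold changes of 3.93, 3.97, 2.98 and 3.16.

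All 5 members of the APC/C, separase and cohesion group were higher at 3 dpa. The APC/C activator gene cdc20 (chromosome 2, 19217586 to 19234469, minus strand) went from 1.26 CPM for WT and 1.104 CPM for the dusp6 mutant library to 22.8 and 13.5 CPM, a log2 fold change of 3.94 ± 0.37. For cdca5, which encodes sororin, the protector of cohesin, levels were 0.430 and 0.463 CPM uninjured and 8.88 and 4.53 CPM at 3 dpa (3.90 ± 0.49). The group thus held both the gene that starts separation and a gene that holds chromatids together, at nearly the same fold.

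Securin and separase are partners, the former an inhibitor of the latter. The securin gene pttg1 had 0.314 and 0.392 CPM uninjured and 4.33 and 2.93 CPM at 3 dpa (log2 fold change 3.36 ± 0.45). Levels of the separase gene espl1 were 2.03 and 3.13 CPM uninjured and 12.5 and 9.33 CPM at 3 dpa (2.08 ± 0.35). The APC/C inhibitor gene fbxo5, known as Emi1, had 0.843 and 0.712 CPM uninjured and 6.44 and 4.33 CPM at 3 dpa (2.79 ± 0.39). The inhibitor gene of separase was therefore higher together with its target, and that of the APC/C together with the activator gene cdc20. The 17 other APC/C genes listed had a median log2 fold change of 0.05, with 9 positive (49.6% of all genes tested).

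In the spindle group, the importin gene kpna2, whose product carries spindle factors such as TPX2, had the widest difference. It was at 2.10 CPM for WT and 3.92 CPM for the dusp6 mutant uninjured library and at 91.3 and 41.2 CPM at 3 dpa (log2 fold change 4.46 ± 0.56), the highest CPM of any member in the WT library. The kinetochore-fibre protein gene dlgap5 had 0.562 and 1.17 CPM uninjured and 18.0 and 10.02 CPM at 3 dpa (4.01 ± 0.54). The microtubule bundler gene nusap1 had 2.00 and 2.71 CPM uninjured and 22.3 and 18.6 CPM at 3 dpa (3.12 ± 0.28). In these 3 genes no 3 dpa library came near the uninjured range.

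At the other end, tacc3, which acts with the microtubule polymerase ch-TOG, had the smallest difference of the members higher at 3 dpa. Its levels were 19.4 and 17.5 CPM uninjured and 45.8 and 34.8 CPM at 3 dpa (log2 fold change 1.13 ± 0.22), so it was the most abundant member in CPM before injury. The Aurora A activator gene tpx2 had 3.09 and 4.61 CPM uninjured and 34.6 and 20.9 CPM at 3 dpa (2.85 ± 0.37). The remaining spindle gene, ckap2l, had a log2 fold change of 3.03.

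The spindle-pole gene aspm was measured at 2.20 CPM for WT and 6.02 CPM for the dusp6 mutant uninjured library and at 40.1 and 25.7 CPM at 3 dpa, a log2 fold change of 3.00 ± 0.56. In uninjured hearts 67.3% of the aspm reads lay in introns, against 7.97% at 3 dpa. Counted on exon reads alone, the aspm log2 fold change was 4.49, or 1.49 more. For the other members tested on exon reads, the same step moved the value by at most 0.34, in nusap1.

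Both centriole genes lay below the members' median log2 fold change of 3.16, though plk4 was at the same value as ncapd2 of the chromosome group (2.62). The centriole duplication kinase gene plk4 had 0.711 and 0.997 CPM uninjured and 6.85 and 3.64 CPM at 3 dpa (log2 fold change 2.62 ± 0.48). The cartwheel gene sass6 had 0.959 and 1.30 CPM uninjured and 3.25 and 2.22 CPM at 3 dpa (1.28 ± 0.42), with the highest adjusted p of the 32 (0.187, quasi-likelihood test).

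All 8 chromosome structure genes were higher at 3 dpa, within a narrow span. The proliferation marker gene mki67 (chromosome 12, 10366617 to 10381282, minus strand), which coats mitotic chromosomes, had 3.01 CPM for WT and 4.81 CPM for the dusp6 mutant uninjured library and 78.4 and 42.9 CPM at 3 dpa (log2 fold change 3.96 ± 0.43). The topoisomerase gene top2a, on the same chromosome, had 3.55 and 6.21 CPM uninjured and 71.7 and 51.8 CPM at 3 dpa (3.66 ± 0.38). These were the chromosome genes with the highest CPM.

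Condensin I is built of the ATPases Smc2 and Smc4 and of the subunits encoded by ncaph, ncapg and ncapd2. The kleisin gene ncaph had 0.661 and 1.19 CPM uninjured and 17.6 and 8.34 CPM at 3 dpa (log2 fold change 3.80 ± 0.54). For smc2 the levels were 2.10 and 3.19 CPM uninjured and 28.0 and 14.5 CPM at 3 dpa (3.01 ± 0.44). For smc4 they were 2.68 and 3.54 CPM uninjured and 25.8 and 13.1 CPM at 3 dpa (2.65 ± 0.42). The subunit gene ncapd2 went from 3.51 and 4.15 CPM to 29.5 and 17.4 CPM (2.62 ± 0.34). All 5 condensin I genes were thus higher, with ncapg at a log2 fold change of 3.51. The translocase gene ercc6l, also called PICH, which binds ultrafine DNA bridges, had a log2 fold change of 3.38.

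Role medians of the log2 fold change were 3.44 for chromosome structure, 3.36 for the APC/C group, 3.34 for mitotic entry, 3.03 for the spindle and 1.95 for the centriole. For comparison, 51 genes of DNA replication had a median of 1.32, and 50 of them were positive. The other genes of the same mitotic machines, 73 in all (APC/C subunits, condensin II and cohesin, entry control, spindle and centrosome), had a median of 0.11 with 44 positive. DESeq2 called 15 of these 73 higher and 20 of the 51 replication genes. Over all genes tested, 49.6% were positive and DESeq2 called 6.15% higher.

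Among those other genes, the lowest p belonged to the following. In entry control, the kinase genes mastl and wee1, the latter an inhibitor of Cdk1, and the Aurora A cofactor gene bora had log2 fold changes of 2.96, 2.18 and 4.07. In condensin II and cohesin, the cohesin protector gene sgo1 and the condensin II genes ncapg2 and ncaph2 had 3.12, 3.16 and 2.70. In the spindle and centrosome list, hmmr had 4.13, the centriole gene cep152 3.11 and the augmin gene haus4 2.95. Of the APC/C subunits and enzymes, the largest of the 3 was ube2s, an E2 enzyme of the complex, at 1.18, beside cdc23 at 0.92 and anapc5 at 0.77. None of these passed the quasi-likelihood test.

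Other cell markers differed between the same libraries. Summed TPM (length-scaled reads per 1000000) of cardiomyocyte markers was 63984 to 65408 uninjured and 27324 to 46110 at 3 dpa, with 8 of 8 genes lower. Epicardial and fibroblast markers had 217 to 247 TPM uninjured and 1601 to 4526 TPM at 3 dpa, with 11 of 11 higher. Macrophage markers had 270 to 327 TPM and 741 to 928 TPM, with 9 of 10 higher, and red cell and thrombocyte markers 8152 to 11145 TPM and 38600 to 73055 TPM, with 7 of 9 higher. Neutrophil markers had 6.22 to 10.5 TPM and 25.7 to 90.5 TPM, with 6 of 6 higher. Endothelial markers (270 to 284 TPM and 265 to 301 TPM) and lymphocyte markers (2.52 to 3.71 TPM and 3.48 to 4.02 TPM) overlapped between the states, and cd8a of the latter was at 0 in at least 1 library. No gene of the other lists was at 0. Their part in the mitotic difference was not tested.

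The second comparison asked whether mitotic transcripts were lower in foxm1 mutant hearts at 3 dpa. Of the 32 members tested (all but cdc25d), 30 had a negative log2 fold change, against 50.1% of the 17618 genes tested. The median was -0.24. For 7 members (nek2, g2e3, aspm, pttg1, kpna2, cdc20 and nusap1) all 3 mutant libraries lay below all 3 WT libraries, a pattern seen in 4.38% of all genes tested. These 7 were at 39.8% to 65.4% of the WT level. No member was higher in all 3 mutants, against 4.85% of all genes.

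None of the differences passed the quasi-likelihood test at an adjusted p of at most 0.05, where 2 genes in all did (0.0114%, both lower). No member was called by DESeq2, which called 0.369% of genes higher and 0.295% lower, or by the likelihood ratio test. An unadjusted p under 0.05 was reached by 7 members, all lower, against 2.88% of genes lower at that p, and they are the 7 named above. Their adjusted p in the quasi-likelihood test was 0.628 to 0.773. The lowest adjusted p of any member was 0.11 with DESeq2 and 0.0958 with the likelihood ratio test.

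**Figure D2:**
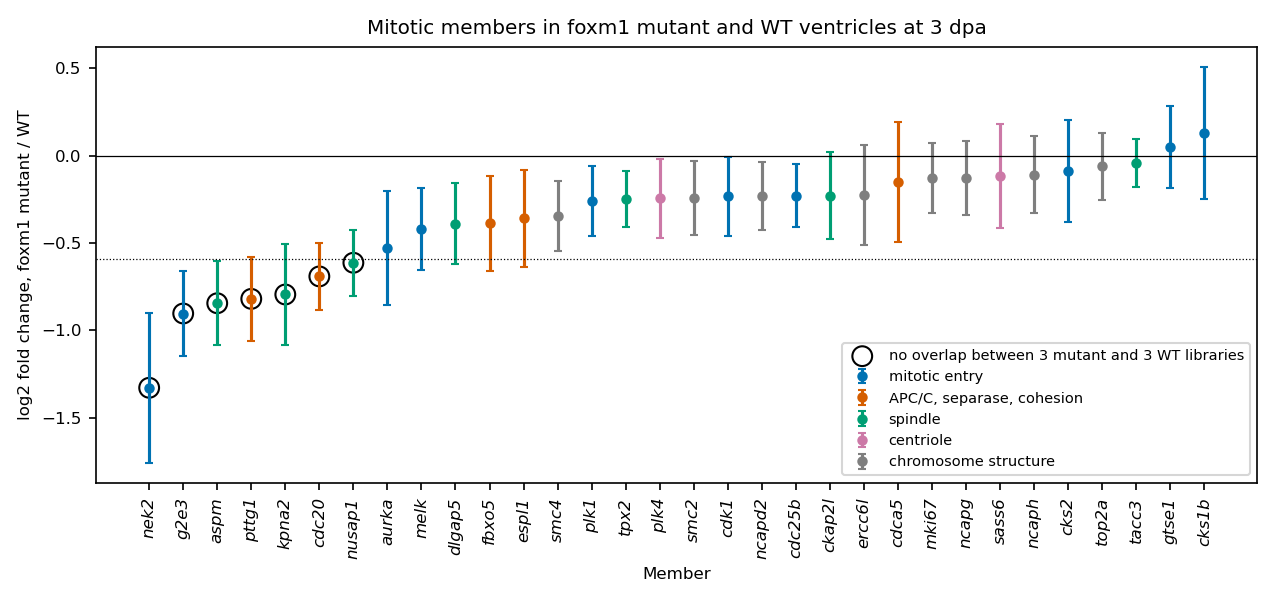
Log2 fold change of foxm1 mutant over WT at 3 dpa for the 32 members tested, with bars of 1 standard error and colours by role (3 libraries per genotype); black rings mark members whose mutant and WT libraries do not overlap, and the dotted line is at -0.59. The 7 ringed members lie between -1.33 and -0.61, and the chromosome genes in grey lie between -0.35 and -0.06.

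The widest difference was in nek2 (chromosome 20, 13883131 to 13894916). WT replicates 2, 3 and 4 had 3.01, 2.92 and 4.999 CPM and the mutants 0.603, 1.91 and 1.81 CPM, a log2 fold change of -1.33 ± 0.43. It shares sequence span with slc30a1a on the same strand, and its reads may in part belong to that gene.

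For g2e3, WT libraries had 9.33, 9.29 and 13.1 CPM and mutants 3.89, 6.76 and 6.27 CPM (log2 fold change -0.90 ± 0.25). For aspm, WT libraries had 31.2, 32.8 and 47.1 CPM and mutants 14.3, 24.7 and 23.0 CPM (-0.85 ± 0.24). In both, the mutant replicate 2 was the lowest and WT replicate 4 the highest library.

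The securin gene pttg1 had 3.53, 4.03 and 5.38 CPM in WT and 2.14, 2.73 and 2.46 CPM in mutants (log2 fold change -0.82 ± 0.24). The APC/C activator gene cdc20 had 15.2, 16.6 and 20.1 CPM in WT and 8.78, 10.03 and 13.3 CPM in mutants (-0.69 ± 0.19). A gap was thus present for a regulator and a target of the APC/C, while espl1, fbxo5 and cdca5 of the same group overlapped between genotypes, with -0.36, -0.39 and -0.15.

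In the spindle group, kpna2 (chromosome 3, 25369965 to 25377163, minus strand) had 45.9, 48.7 and 58.8 CPM in WT and 19.5, 24.1 and 44.8 CPM in mutants (log2 fold change -0.80 ± 0.29), its mutant replicate 4 lying just below the lowest WT library. The nusap1 libraries had 12.7, 14.5 and 15.98 CPM in WT and 7.19, 9.87 and 11.2 CPM in mutants (-0.61 ± 0.19). The remaining spindle genes overlapped, and tacc3 was nearest to 0 at -0.04 ± 0.14.

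No chromosome structure gene had separate groups. The marker gene mki67 had 42.1, 47.3 and 64.6 CPM in WT and 38.4, 45.0 and 57.5 CPM in mutants (log2 fold change -0.13 ± 0.20). For top2a the values were 47.2, 56.0 and 67.8 CPM in WT and 44.2, 52.1 and 67.6 CPM in mutants (-0.06 ± 0.19). The condensin I genes lay between -0.35 (smc4) and -0.11 (ncaph). Nor did the centriole genes separate, with plk4 at -0.24 and sass6 at -0.12.

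By role, groups did not overlap for 3 of 7 spindle genes, 2 of 5 genes of the APC/C group, 2 of 10 mitotic entry genes, 0 of 8 chromosome genes and 0 of 2 centriole genes. Over all genes tested, 4.38% were lower in mutants without overlap. Whether roles differed was not tested. The kinase gene plk1 had 18.9, 18.5 and 25.4 CPM in WT and 13.3, 18.4 and 20.8 CPM in mutants (log2 fold change -0.26 ± 0.20), and cdk1, aurka, melk and cdc25b were also negative, at -0.23, -0.53, -0.42 and -0.23, with overlapping groups. The Cdk subunit gene cks1b (0.13 ± 0.38) and gtse1 (0.05 ± 0.24) were the members with a positive value.

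Of all genes tested in the foxm1 comparison, 50.1% were negative and 4.38% were lower in all 3 mutant libraries than in all 3 WT libraries. Replication genes had a median of -0.22, with 42 of 51 negative and 2 of 51 separate in this way. The 72 other mitotic genes tested had a median of -0.06, with 47 negative and 2 separate. Of these lists, ube2s had the lowest p (log2 fold change -0.41 ± 0.12, adjusted p = 0.628, quasi-likelihood test), and hmmr had -0.48 and sgo1 -0.50.

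Single libraries carried much of the level. WT replicate 4 was the highest WT library for 31 of 32 members and mutant replicate 2 the lowest mutant for all 32. Summed TPM of the members was 270, 299 and 389 in WT and 201, 250 and 328 in mutants (320 ± 61.9 and 260 ± 64.3, SD, n = 3 each), and these ranges overlapped. Without WT replicate 4, the members' median was -0.11 with 22 of 32 negative (48.4% of all genes), and without mutant replicate 2 it was -0.12 with 24 negative (48.6%). Without mutant replicate 4 the median was -0.45 with 32 negative (50.1% of all genes). In that fit 12 members had an unadjusted p under 0.05, against 3.30% of genes lower at that p, and the lowest adjusted p was 0.0788 (quasi-likelihood test). Without WT replicates 2 and 3 together, the only WT library left was replicate 4, the highest for 31 of 32 members. Against that library all 33 members tested were negative (49.4% of all genes), with a median of -0.55.

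Several other measures differed with the genotype. Mitochondrial genes took 8.19% to 8.60% of the gene reads in WT and 8.88% to 11.4% in mutants, the highest being mutant replicate 2. Neutrophil markers summed to 36.8 to 64.1 TPM in WT and 68.5 to 232 TPM in mutants, with 4 of 6 genes higher. Without lyz (11.1 to 15.7 TPM in WT, 26.5 to 163 TPM in mutants) these sums overlapped, at 25.7 to 49.4 TPM and 42.00 to 69.2 TPM. Epicardial and fibroblast markers summed to 2865 to 2912 TPM in WT and 2472 to 2663 TPM in mutants, with 9 of 11 lower. Cardiomyocyte markers overlapped, at 34395 to 38032 TPM and 32397 to 38987 TPM. None of the markers of these 3 lists was at 0, and their part in the mitotic values was not tested.

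The rows matched by gene ID or suffix gave further values. The troap row (a clone-named gene on chromosome 23), for a spindle-associated protein, had 12.5, 11.2 and 14.9 CPM in WT and 3.51, 5.94 and 5.11 CPM in mutants, a log2 fold change of -1.40 ± 0.22 (adjusted p = 0.221, quasi-likelihood test). The cdca3 row, on chromosome 16, had 18.1, 17.5 and 25.4 CPM in WT and 4.83, 7.36 and 11.1 CPM in mutants (-1.38 ± 0.29, adjusted p = 0.429). Both were further from 0 than any member matched by name, and neither passed the test.

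The gene ube2c, for the E2 enzyme of the APC/C, stood in a pair of neighbouring rows on chromosome 6. The first had a log2 fold change of 3.74 at 3 dpa and -0.58 in foxm1 mutants with separate groups, and the second 0.08 and 0.05. The rows do not overlap (55287823 to 55297274 and 55299511 to 55309190), and 99.1% and 100% of their reads were unique. At 3 dpa against uninjured, cdca3 had a log2 fold change of 3.78, troap 2.31 and the augmin gene haus8 1.39.

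The third comparison set dusp6 mutant against WT hearts, with 1 library of each per injury state, so there is no replicate within a state. At 3 dpa all 33 members were lower in the dusp6 mutant library, against 49.6% of all genes. The mutant level was 45.2% (kpna2) to 91.6% (cdc25b) of WT, with a median of 60.5%. In uninjured hearts 29 of 33 were higher in the mutant library, against 48.8% of genes. Both together held for 29 members and for 20.1% of genes. Across both states the edgeR quasi-likelihood test with injury state as a second term called 0 members and 0 genes (0%), no member had an unadjusted p under 0.05, and DESeq2 called 0 members, against 0.735% of genes higher and 0.701% lower.

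**Figure D3:**
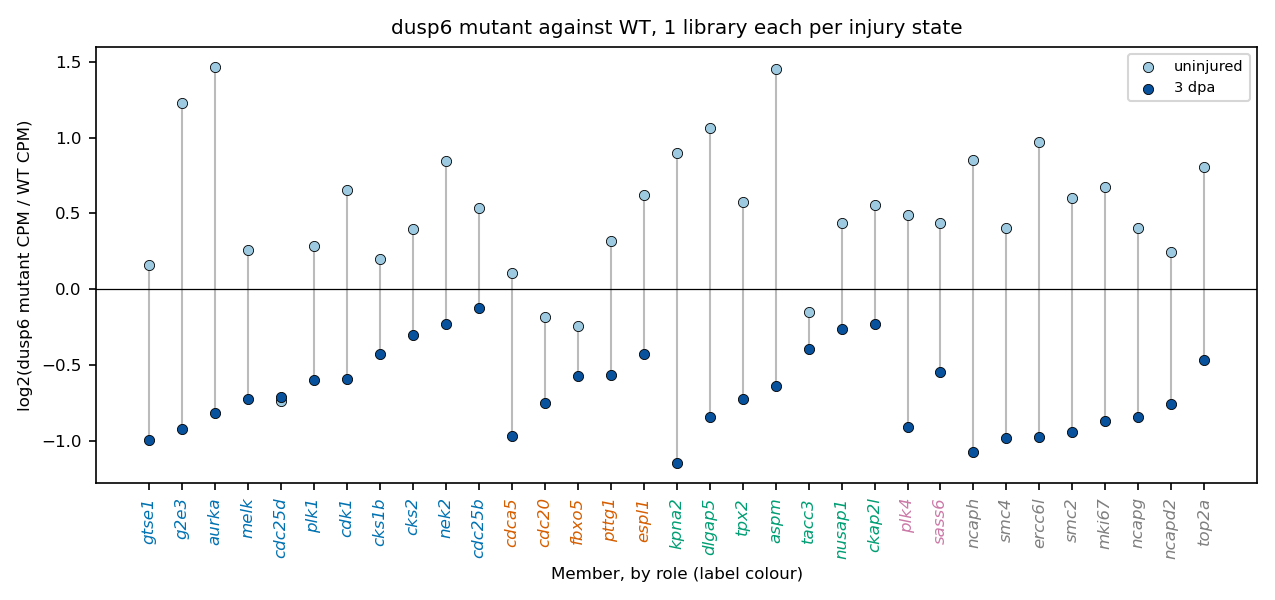
Log2 ratio of dusp6 mutant to WT CPM for the 33 members, with 1 library per genotype in each state (pale, uninjured; dark, 3 dpa), in order of role by label colour; no error can be given. All dark points lie below 0, and 29 of 33 pale points lie above 0.

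Between the single libraries, the log2 change from uninjured to 3 dpa was therefore larger in WT than in the dusp6 mutant for 32 of 33 members. This held for 48.7% of all genes tested. The members' median log2 differences were 3.76 and 2.66. For mki67 the difference was 4.70 in WT and 3.16 in the mutant. For kpna2 it was 5.44 and 3.40. The value of g2e3 was 5.87 in WT and 3.71 in the mutant, and that of aspm 4.19 and 2.10. Only cdc25d, which is hardly expressed, did not follow.

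The interaction of genotype and injury, a fit added after the data were seen over all 10 libraries that takes its spread from the replicated groups of the foxm1 experiment, called 0 members at an adjusted p of at most 0.05, with 22 genes (0.115%) called positive and 23 (0.12%) negative. A negative interaction with an unadjusted p under 0.05 was found for 14 of 33 members and for 6.6% of genes, and 7 of the 14 were chromosome structure genes. The lowest adjusted p was that of aspm, at 0.206 (log2 interaction -2.10 ± 0.59, edgeR quasi-likelihood test). The median interaction was -1.08.

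Summed member TPM was 29.8 in WT and 38.0 in dusp6 mutant uninjured hearts, and 558 and 287 at 3 dpa, the mutant being at 51.5% of WT. Other sums moved between the same 3 dpa libraries. Replication genes were at 47.9% of WT, epicardial and fibroblast markers at 35.4% and red cell and thrombocyte markers at 52.8%, whereas cardiomyocyte markers were at 169%. Counted by gene, 49 of 51 replication, 10 of 11 epicardial and 8 of 9 red cell genes were lower in the mutant library and 8 of 8 cardiomyocyte genes higher. The neutrophil sum was at 353%, but 4 of its 6 genes were lower, and the sum was carried by lyz (2.73 TPM for WT, 61.8 TPM for the mutant) and npsn (9.87 and 21.04 TPM). Mitochondrial genes took 8.001% of gene reads for WT and 12.6% for the dusp6 mutant library. With 1 library each, genotype and the state of that library cannot be told apart.

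The labels list 1 WT and 1 dusp6 mutant (pt30a/pt30a) library at 7 dpa, which were not analysed singly here, so the 7 dpa values below do not separate the genotypes. At 7 dpa, the authors' larger group mean of RPKM (reads per kilobase of exon and per 1000000 reads) is known wherever it exceeded the uninjured mean. This held for 32 of 33 members, all but cdc25d, against 51.8% of the 25281 genes. All 32 were below their own 3 dpa mean. So were 3727 of the 4004 tested genes at least 2-fold up at 3 dpa with a 7 dpa value, and 47 of 48 replication genes. The members' level at 7 dpa was 9.64% (cdc20) to 60.0% (sass6) of the 3 dpa mean, with a median of 26.9%. On this scale the median gene tested was at 1.25 times the uninjured mean at 3 dpa and at 1.05 times at 7 dpa. These are authors' means with no error, and no test was made.

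**Figure D4:**
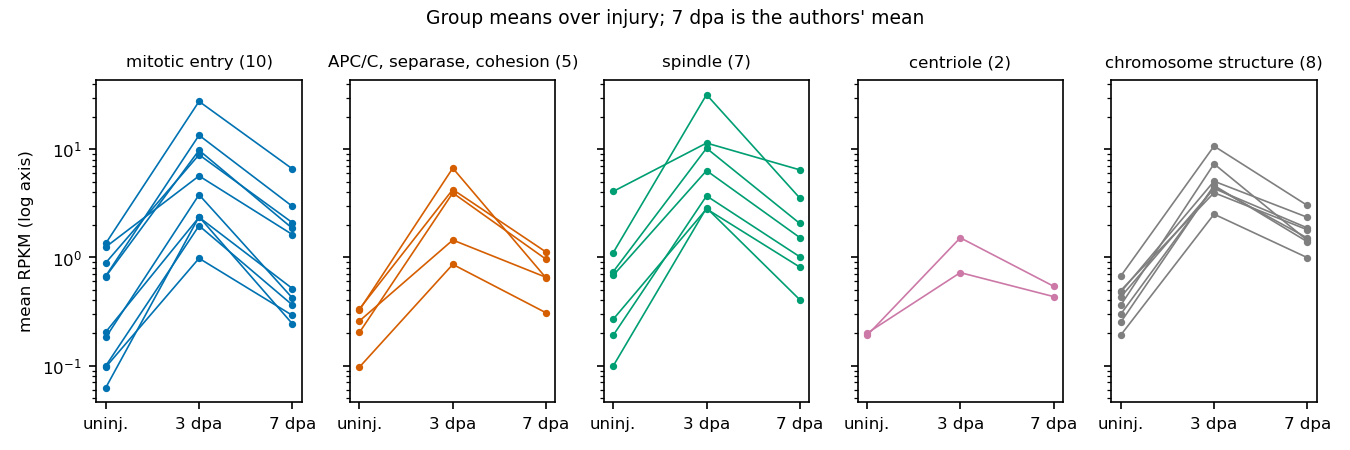
Mean RPKM (log axis) of the 32 members with a 7 dpa value, by role, in uninjured, 3 dpa and 7 dpa ventricles; each line is 1 gene, the first points are means of 2 libraries and the 7 dpa point is the authors' mean, in which WT and dusp6 mutant hearts are not separated. Each line peaks at 3 dpa. Only members whose 7 dpa mean exceeded the uninjured mean are drawn, so by this choice every line ends above its uninjured level.

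The 7 dpa level was a median of 22.0% of the 3 dpa mean for mitotic entry, 24.02% for the spindle, 26.4% for the APC/C group, 36.7% for chromosome structure and 47.8% for the centriole. Of the single genes, cdc20 had an RPKM of 0.328 uninjured, 6.70 at 3 dpa and 0.646 at 7 dpa. The g2e3 RPKM was 0.0624, 2.38 and 0.244, that of kpna2 1.11, 32.0 and 3.54, and that of aurka 0.182, 3.80 and 0.422, each at 10.2% to 11.1% of the 3 dpa level. By contrast, smc2 (0.478, 5.07 and 2.35) was at 46.4% and tacc3 (4.08, 11.4 and 6.46) at 56.5%. All these shares include the uninjured level, which weighs more where the 3 dpa fold was small. That fold was 2.80 for tacc3 and 10.6 for smc2. Its median was 5.82 for the centriole and 12.7 to 17.3 for the other roles. The shares therefore do not rank how much of the rise remained. For mki67 the share was 19.6% and for plk1 19.0%.

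By ratios of mean RPKM, the 32 members with a 7 dpa value were a median of 13.5-fold above uninjured hearts at 3 dpa and 3.27-fold at 7 dpa. This scale has no TMM normalization, whereas the CPM fits have it and count intron reads as well as exon reads. The 3 dpa value is therefore not that of the median log2 fold change of 3.16 over the 33 members. On exon reads that median was 3.40, for the 32 members then tested. Replication genes with a 7 dpa value (48 of 51) had a median share of 64.6% of their 3 dpa level, and the 4004 tested genes at least 2-fold up at 3 dpa with a 7 dpa value had 48.8%. Epicardial and fibroblast markers (11 of 11 with a value) had 29.5% and macrophage markers (8 of 10) 32.6%, beside 26.9% for the members (32 of 33). Genes not above their uninjured mean at 7 dpa have no share and are missing from each median. Of the genes at least 2-fold up at 3 dpa, 4004 of 4682 had a share. The medians therefore leave out different parts of each list. A share also cannot lie below the uninjured part of the 3 dpa level, which is larger where the 3 dpa fold was smaller. Median 3 dpa folds were 13.5 for the members, 3.55 for replication genes and 3.64 for the genes at least 2-fold up. They were 15.5 for epicardial and fibroblast markers and 5.72 for macrophage markers. The possible range of the shares thus differed between lists, and no test compared them.

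Per length, the order of the members' levels at 3 dpa is given for the WT libraries of the foxm1 experiment as TPM (mean ± SD, n = 3). The highest were kpna2 (44.5 ± 6.73), cdk1 (34.0 ± 6.07), tacc3 (26.6 ± 4.67) and top2a (17.5 ± 3.56), and the lowest cdc25d (0.0856 ± 0.0354), fbxo5 (1.15 ± 0.160), sass6 (1.19 ± 0.278) and nek2 (1.58 ± 0.528). The neighbours plk1 (14.04 ± 2.99), cks1b (13.9 ± 5.04), nusap1 (12.9 ± 1.59) and cks2 (12.3 ± 1.92) did not differ beyond their spread.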

How the data were processed

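Per the methods, mapping to GRCz11 and counting per gene were done by the authors with CLC Genomics Workbench. Each deposited library table holds raw counts (all, unique, exon and intron reads), RPKM and TPM. The authors' comparison tables hold fold changes, p-values and the larger group mean RPKM, of which only the last was used. Where it equals the uninjured mean within 1e-06, no 7 dpa level is known.

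Counts of all gene reads were filtered (filterByExpr, minimum 10, total 15), TMM-normalized and tested with edgeR 4.0.16 (R 4.3.3, quasi-likelihood F test, Benjamini-Hochberg over all genes tested: 20408 and 17618). Calls needed an adjusted p of at most 0.01 (3 dpa) or 0.05 (foxm1, dusp6) and an absolute log2 fold change from 0.59 upwards. Fits were tested on simulated data. Alternatives used DESeq2 1.42.0, limma 3.58.1, RLE, other read classes and filters, and leaving out libraries.

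Members, lists and the naming rule were chosen with earlier results of these data known. The rule names, per role, the 3 largest and 3 smallest log2 fold changes at 3 dpa, the 6 largest in size in foxm1 mutants, g2e3, plk1 and mki67, and up to 3 genes per other list by p. Others were named after their values were seen. Sequences and motifs were not analysed here.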

Additional observations from a re-analysis of the deposited data

How the results depend on the processing

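For 3 dpa against uninjured hearts, 31 members were called higher with DESeq2, with the likelihood ratio test and with all 10 libraries in one fit. That last fit takes its spread in part from the foxm1 experiment. The count was 0 under RLE, no filter, unique reads, exon reads, limma-trend on log2(TPM + 1) or log2(TPM + 0.1), and the genotype as a replicate block, which gave a median log2 fold change of 3.13. Leaving out each library gave 0 to 3 calls (3 without the dusp6 3 dpa library, where 0.789% of all genes were called higher) and medians of 2.90 to 3.59. On log2(TPM + 1) the median was 2.45, and 2.5045 for genes with a mean TPM of at least 1, where the all-gene median shifted to 0.12 and 0.27. Depth limits cdc25d, which had 70 reads uninjured and 52 at 3 dpa over 2 libraries each. Uninjured reads were fewer still for g2e3 (35), melk (38), pttg1 (41), aurka (50), cdca5 (52) and nek2 (64). The fold changes of these genes therefore rest on few uninjured reads.

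In foxm1 mutants 0 members were called at an adjusted p of at most 0.05 under every setting run, including omission of any library. A limit of 0.1 was tried in the main quasi-likelihood test alone, where it also called 0. The lowest adjusted p of a member was under 0.1 in the likelihood ratio test (0.0958) and in the quasi-likelihood test without mutant replicate 4 (0.0788). With the experiment number as a replicate block, 10 members had an unadjusted p under 0.05 (3.38% of all genes were lower at that p), the lowest adjusted p was 0.395 and the median was -0.26. To look for pairing, the mean of each gene within its genotype was subtracted from log2 CPM. These deviations, not the levels themselves, correlated at 0.09, -0.04 and 0.13 between same-numbered libraries. Replicate 3 did not correlate best with its own number, so these correlations did not establish a pairing. In all 3 same-numbered pairs, 24 of 32 members were lower in the mutant, against 13.0% of genes tested. Leave-one-out medians were -0.45 to -0.11.

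Members with small values changed sign when 1 library was left out. The ranges were -0.38 to 0.43 for cks1b, -0.13 to 0.23 for gtse1, -0.39 to 0.17 for cks2, -0.55 to 0.11 for cdca5, -0.40 to 0.0497 for ckap2l, -0.14 to 0.0939 for tacc3, -0.31 to 0.0490 for sass6, -0.24 to 0.0840 for top2a, -0.33 to 0.0720 for ncapg, -0.32 to 0.0394 for ncaph and -0.29 to 0.0723 for mki67. Without WT replicates 2 and 3 together, which leaves WT replicate 4 alone, cks1b was at -0.33 and gtse1 at -0.26. The cause was not tested. For dusp6, the median was 0.44 from the uninjured pair alone and -0.71 from the 3 dpa pair alone, so the value of -0.15 over both states averages opposite signs. Promoter motif and KEN box searches were not run.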

Other observations

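Pooled over the members, intron reads took a smaller share of the reads after injury. In the injury experiment the share was 11.6% for WT and 11.3% for the dusp6 mutant uninjured library and 4.06% and 5.65% at 3 dpa, while over all genes it was 7.00% and 6.85% uninjured and 8.18% and 8.45% at 3 dpa. In the foxm1 experiment the members' share was 2.06% to 2.53%. The largest share was that of cdc25d, at 88.6% uninjured and 88.5% at 3 dpa. Other genes with large shares in uninjured hearts were aspm (67.3%), nek2 (32.8%), smc4 (25.8%), sass6 (24.4%) and nusap1 (22.7%). At 3 dpa their shares were 7.97%, 17.6%, 6.80%, 10.8% and 2.23%. In other members the share rose, as in melk (0% to 6.30%), dlgap5 (8% to 13.6%) and aurka (6% to 9.25%), so the pooled fall does not hold for every member. Of the 33 members, 6 overlap another gene, among them nek2, tpx2 and smc2 with a gene on the same strand and nusap1, dlgap5 and ncapg with one on the opposite strand. The part of unspliced RNA or of other transcripts in these reads was not tested.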
